A study of Mus musculus with 4 samples.

Results

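The BCL2 family decides whether a stressed cell keeps its mitochondria intact or dies by apoptosis, and 10 of its genes were followed here in tumor-associated macrophages (TAMs). The 10 genes were given as a list of mouse symbols (Bcl2, Bcl2l1, Mcl1, Bcl2a1a, Bcl2a1b, Bcl2a1d, Bcl2l11, Bak1, Bid and Pmaip1) and were matched by Entrez identifier, and all 10 were present among the 16739 genes with a value in any library. The family works through 3 kinds of protein. Guardians such as BCL2, BCL-XL, MCL1 and A1 hold the death machinery in check, the executioners BAK and BAX open the outer mitochondrial membrane when released, and the BH3-only proteins, among them BIM, BID and NOXA, bind the guardians or the executioners and start the process. Myeloid cells are known for their use of MCL1 and of A1, the product of the Bcl2a1 genes, which mice carry in several near-identical copies.

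TAMs were sorted as CD45+ CD11b+ F4/80+ cells from tumors of the mouse melanoma line B16-F10, injected under the skin of C57BL/6 mice aged 6 to 8 weeks and taken on day 16. The control group was 2 WT libraries, described by the study as littermate controls. The other group was 2 libraries with the genotype label Trim24-/-, called deficient-labelled below, from mice in which floxed Trim24 was deleted by LysM-Cre, a recombinase made in myeloid cells in general and not in TAMs alone. Bulk RNA was sequenced, and the study asked what loss of Trim24, an E3 ligase, does to the TAM transcriptome.

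The libraries held between 4476122 and 5172407 expected counts, the read numbers per gene estimated by RSEM. CPM below is an expected count scaled to a common TMM-adjusted library total, at which 3 counts equal 0.61 to 0.64 CPM. Trim24 itself was at 5.86 and 2.08 CPM in the WT pair against 3.41 and 0.411 CPM in the deficient-labelled pair, so the groups overlapped, and a count over the whole gene does not show whether its reads fall in the deleted part (log2 fold change -1.06, with a standard error (SE) of 0.82, adjusted p = 0.635 in edgeR). Xist was at 10.9 and 6.46 CPM in the WT pair against 437 and 256 CPM in the deficient-labelled pair, and Y-linked Kdm5d was at 12.1 and 14.6 CPM against 0 in both. Sex and genotype therefore cannot be told apart in any difference given here. Defining macrophage markers were high in all 4 libraries, with Csf1r at 1316 to 1573 CPM and Adgre1 at 1038 to 1304 CPM, beside melanoma transcripts such as Tyr at 375 to 496 CPM.

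Because 3 of the 10 members are near-identical Bcl2a1 genes whose reads are hard to tell apart, their sequences come first. Bcl2a1d, Bcl2a1a and Bcl2a1b lie in this order on chromosome 9 of GRCm38.p6, from 88723288 to 88731850 (minus strand), 88956920 to 88962416 (plus strand) and 89199273 to 89207838 (plus strand), with gaps of 225 and 237 kb. Each codes for A1 in 516 bases over 2 exons, and the 3 coding sequences differ at only 12 positions. The 60 coding bases from the start codon hold 6 of the 12 and are shown to let a reader see how little separates the genes, with the differing bases in capitals. They are taken from the GENCODE transcripts.
Bcl2a1a: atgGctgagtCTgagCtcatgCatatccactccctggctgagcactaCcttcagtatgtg
Bcl2a1b: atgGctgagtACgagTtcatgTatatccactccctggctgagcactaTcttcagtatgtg
Bcl2a1d: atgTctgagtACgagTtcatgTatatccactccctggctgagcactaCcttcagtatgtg

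Pairwise identity of the coding sequences was 97.9% for Bcl2a1a and Bcl2a1b, 98.6% for Bcl2a1a and Bcl2a1d and 98.8% for Bcl2a1b and Bcl2a1d. The longest run with no difference among the 3 genes was 217 bases. Of all 50-base windows of the transcripts, only 31.0% of Bcl2a1a, 20.8% of Bcl2a1b and 20.5% of Bcl2a1d occurred in the transcripts of no other gene. With 100-base windows the shares were 56.5%, 43.2% and 45.3%. The read length is not given in the sources used here, so these windows describe the sequence and not the actual reads. A read from a window that is not unique can come from more than 1 gene, and RSEM divides such reads by estimate. Bcl2a1b also shares 401 exonic bases with Gm29094 on its own strand. The summed reads of the 3 genes do not depend on the split among them, and they are used below as the firmer quantity.

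The promoters of the 3 genes are also alike, and a stretch of 127 bases is shown to let a reader compare them. It comes from the RefSeq promoter table (GRCm38.p6) and lies within the 250 bases before each annotated start. The capitals mark TGAATCA, a match to TGANTCA, the pattern used here for AP-1, which allows any base (N) at its middle position.
Bcl2a1a, chr9:88956740-88956866, plus strand: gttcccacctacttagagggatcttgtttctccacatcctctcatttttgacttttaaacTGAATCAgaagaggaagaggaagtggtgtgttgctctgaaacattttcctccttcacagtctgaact
Bcl2a1b, chr9:89199049-89199175, plus strand: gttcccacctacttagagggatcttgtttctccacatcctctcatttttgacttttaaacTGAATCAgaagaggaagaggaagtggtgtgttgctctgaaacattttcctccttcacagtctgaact
Bcl2a1d, chr9:88731898-88732024, minus strand: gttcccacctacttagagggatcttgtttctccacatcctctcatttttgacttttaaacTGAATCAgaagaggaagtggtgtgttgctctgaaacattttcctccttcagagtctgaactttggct

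Over the aligned bases of this stretch, Bcl2a1a and Bcl2a1b differed at 0 positions and each differed from Bcl2a1d at 1, apart from a gap. Promoters of 9 members were in the table, each searched on both strands for a STAT pattern (TTCNNNGAA), a STAT6 pattern with a longer spacer, the AP-1 pattern, a simplified NF-kappaB pattern and the core promoter element TATAAA. The AP-1 pattern was found in the 3 Bcl2a1 promoters and in 6.75% of all 32851 promoter windows of the table. The simplified NF-kappaB pattern was found in Mcl1 and in 1 of 3 start sites of Bcl2l1, against 4.65% of all windows. The STAT, STAT6 and TATAAA patterns were found in 0 of the 9, against 7.02%, 5.85% and 12.4% of all windows. A match of letters describes the sequence only.

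On the per-length scale (FPKM, read counts scaled to transcript length and library total, as deposited), Bcl2a1b was the highest of the 10 members, with 244 and 223 FPKM in WT replicates 1 and 2 and 338 and 263 FPKM in the deficient-labelled pair. The 3 Bcl2a1 genes together reached 404 and 328 FPKM in the WT libraries and 621 and 448 FPKM in the other pair. They made up between 57.3% and 72.4% of the summed FPKM of the 10 members. Over all 25 family genes with a value their share was 32.8% to 43.97%, since 2 genes outside the 10 were also high, the executioner Bax at 249.9 to 301.5 FPKM and the mitochondrial Bnip3 at 85.3 to 186 FPKM.

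Bcl2l1, which codes for BCL-XL, followed with 109 and 117 FPKM in WT and 108 and 136 FPKM in the deficient-labelled pair. Mcl1 was at 47.9 and 54.5 FPKM in WT and at 52.5 and 41.6 FPKM in the deficient-labelled pair, a level below that of Bcl2l1 in each library. Bcl2 itself, the founding member, was the lowest of the 10, at 1.94 and 3.91 FPKM in WT and 2.06 and 1.30 FPKM in the deficient-labelled pair. The guardians held 87.9% to 91.3% of the summed FPKM of the 10, and Bcl2 alone 0.183% to 0.683%. The 10 include more guardians than death genes and leave out Bax (249.9 to 301.5 FPKM), so the guardian share depends on the list.

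The 4 death genes among the 10, a set without Bax, were lower than Bcl2l1. Bid was the most abundant of them at 37.8 to 48.5 FPKM, followed by the executioner Bak1 at 10.6 to 15.4 FPKM, Bcl2l11 at 8.19 to 12.9 FPKM and Pmaip1 at 7.33 to 9.91 FPKM. In order of mean FPKM the members ran Bcl2a1b, Bcl2l1, Bcl2a1d, Bcl2a1a, Mcl1, Bid, Bak1, Bcl2l11, Pmaip1 and Bcl2. Neighbours in this order overlapped in their ranges over the 4 libraries, except that Bcl2a1b stood above Bcl2l1, Bid above Bak1 and Pmaip1 above Bcl2.

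**Figure D1:**
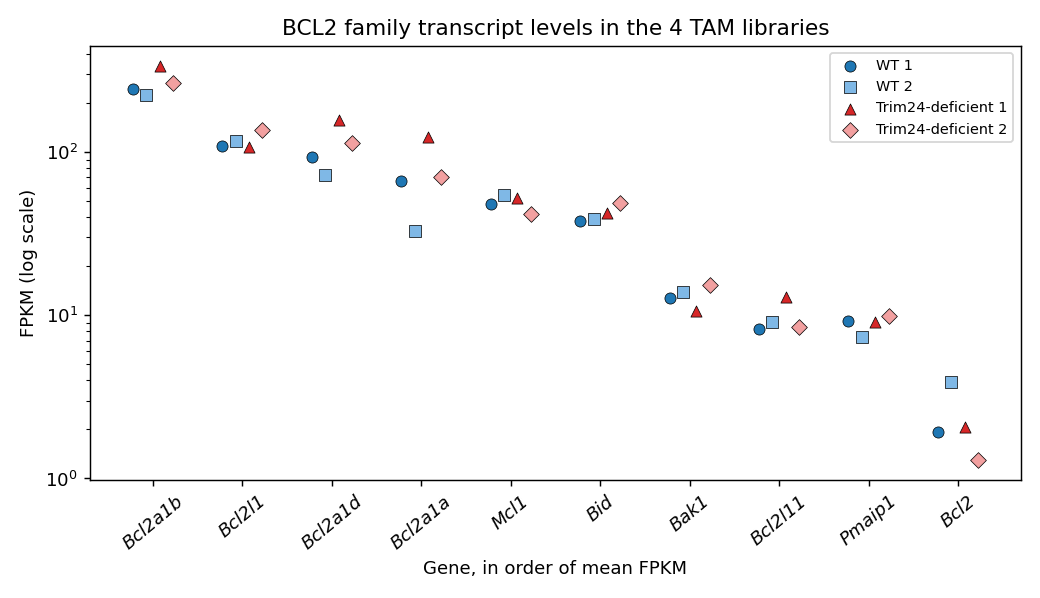
Transcript level (FPKM, log axis) of the 10 BCL2 family members in each of the 4 TAM libraries, with a point for each library and genes ordered by mean FPKM. Bcl2a1b lies at 223 to 338 FPKM, above every other member, and Bcl2 at 1.30 to 3.91 FPKM, below every other member.

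Between the groups, Bcl2a1a and Bcl2a1d lay furthest above 0 of the 10 in log2 fold change, and no member passed the study's thresholds of 1.5-fold and FDR 0.05. Of the 10 members 0 were called by edgeR's quasi-likelihood test, 0 by DESeq2 and 0 by limma on log2(FPKM + 1), against 42 of 11302 tested genes (0.372%, with 0.292% higher and 0.0796% lower) called by edgeR, 1.38% by DESeq2 and 0.207% by limma. With the replicate number as a block edgeR called 2 of 10, Bcl2a1a and Bcl2a1d, against 5.61% of all genes, and with block and length correction 2 against 3.53%. At an unadjusted p under 0.05 in edgeR stood 3 members, Bcl2a1a, Bcl2a1b and Bcl2a1d, all higher in the deficient-labelled pair. Over all genes 6.58% did so in that direction, 5.62% in the other and 12.2% in either. With the 3 paralogs taken as a single feature, since they share reads, 1 of 8 did so, beside 12.2% of all genes. DESeq2 put 3 members and 7.95% of all genes at that level, and limma 2 members and 13.2%. All 10 passed the filter on low counts. The median log2 fold change of the 10, with the 3 paralogs counted separately, was 0.36, beside -0.0059 for all tested genes.

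Summed Bcl2a1 reads were at 298 and 230 CPM in the WT pair against 493 and 360 CPM in deficient-labelled replicates 1 and 2. Both deficient-labelled libraries were above both WT libraries, and the lower of them was 1.21 times the higher WT library. The log2 fold change was 0.69 (SE 0.23, 95% interval 0.17 to 1.22), from 264 ± 47.5 to 427 ± 93.9 CPM (SD, n = 2 each). It did not pass after adjustment over all genes (adjusted p = 0.273, edgeR's quasi-likelihood test). With replicate number added as a blocking term the change of the sum was 0.69 and passed (adjusted p = 0.0242, edgeR), and with block and length correction it was 0.58 and did not (adjusted p = 0.0983, edgeR). An exact two-sided permutation test of 2 libraries against 2 cannot go below p = 0.333. Without deficient-labelled replicate 2 the change was 0.90 and passed (adjusted p = 0.0142, edgeR, with a range of 0.0142 to 0.999 over all alternatives), and without replicate 1 it was 0.45. A fit without a library leaves 1 library in its group, which is then assumed to vary like the other pair. Without deficient-labelled replicate 2 edgeR called 5.54% of all genes, and without replicate 1 it called 3.46%.

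Each paralog taken alone followed the same order of libraries as the sum. The sum is made of these 3 genes, and RSEM divides the reads they share, so this likeness is partly built in. Bcl2a1a was at 50.1 and 23.96 CPM in WT and at 101 and 57.7 CPM in the deficient-labelled pair, a log2 fold change of 1.10 (SE 0.36, adjusted p = 0.256 in edgeR). Bcl2a1d was at 70.7 and 52.1 CPM in WT and at 128 and 94.1 CPM in the deficient-labelled pair, a log2 fold change of 0.86 (SE 0.23, adjusted p = 0.194 in edgeR). Bcl2a1b was at 177 and 155 CPM in WT and at 263 and 208 CPM in the deficient-labelled pair, a log2 fold change of 0.51 (SE 0.20, adjusted p = 0.360 in edgeR). In all 3 genes deficient-labelled replicate 1 was highest and WT replicate 2 lowest, with no overlap of the groups. Without deficient-labelled replicate 2, Bcl2a1a at 1.45 and Bcl2a1d at 1.07 passed the thresholds under the same assumption (adjusted p = 0.000408 and 0.00127, edgeR). Bcl2a1a was at 0.64 without deficient-labelled replicate 1, 0.66 without WT replicate 2 and 1.74 without WT replicate 1, and did not pass in these 3 fits. Bcl2a1b was at 0.33 without deficient-labelled replicate 1.

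The split of reads between the paralogs varied over the libraries. Bcl2a1b took 59.4% and 67.04% of the summed counts in the WT libraries and 53.4% and 57.8% in the deficient-labelled pair. Bcl2a1a took 16.9% and 10.4% in WT against 20.5% and 16.1%, so the groups overlapped for this gene. Bcl2a1d took 23.7% and 22.6% against 26.04% and 26.15%. Whether the paralogs changed unequally was not tested, since these shares rest on RSEM's division of shared reads. The fourth copy, Bcl2a1c, which lies 25122 kb away on the same chromosome, had only 5.93 to 24.9 expected counts, and adding it to the sum left the log2 fold change at 0.69.

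**Figure D2:**
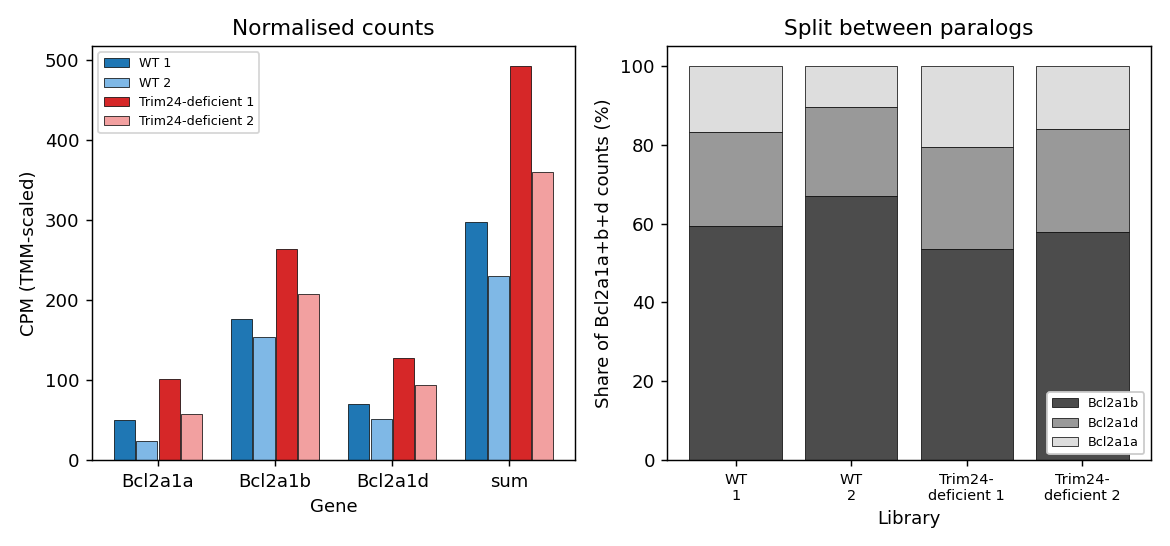
Left, normalised counts (CPM) of Bcl2a1a, Bcl2a1b, Bcl2a1d and their sum, with a bar for each of the 4 libraries; right, the percentage of the summed expected counts given to each gene in each library. The sum is 298 and 230 CPM in WT and 493 and 360 CPM in the deficient-labelled pair, and Bcl2a1b holds between 53.4% and 67.04% of it.

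The Bcl2a1 transcripts are short, 764 to 796 bases in the deposited tables, beside a median of 2810 bases for the tested genes. Shorter genes tended to be higher in the deficient-labelled pair (Spearman's rho -0.249 across 11302 genes, which are not independent replicates). The 649 tested genes of 600 to 1000 bases had a median log2 fold change of 0.12. After a trend on length was taken out of each library, rho was -0.0055, the median of these genes 0.014 and the change of the Bcl2a1 sum 0.60 (adjusted p = 0.373, edgeR). That correction called 0.336% of all genes and 0 members.

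The other guardians had smaller differences than the Bcl2a1 sum and no call. Mcl1, whose short-lived protein many myeloid cells depend on, lies on chromosome 3, spans 95656944 to 95663179 and was at 165 and 179 CPM in WT and at 194 and 156 CPM in the deficient-labelled pair. The groups overlapped, with a log2 fold change of 0.03 whose 95% interval ran from -0.41 to 0.47 (adjusted p = 0.969, edgeR). That interval leaves out a change of 1.5-fold in either direction. Its sign turned with library totals in place of TMM, to -0.12, without WT replicate 1, to -0.02, and without deficient-labelled replicate 1, to -0.13.

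Bcl2l1, located at 152758732 to 152833803 of chromosome 2, read 267 and 272 CPM in WT and 283 and 362 CPM in the deficient-labelled pair. The groups did not overlap, but deficient-labelled replicate 1 was only 1.04 times the higher WT library. Its log2 fold change was 0.26 (SE 0.21, 95% interval -0.20 to 0.72, adjusted p = 0.639, edgeR). It was 0.075 without deficient-labelled replicate 2 and 0.43 without replicate 1.

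Bcl2, on chromosome 1 from 106538176 to 106714290, was measured on 49.1 to 86.7 expected counts per library. It was at 10.7 and 18.1 CPM in WT and at 13.0 and 10.1 CPM in the deficient-labelled pair, the only member with a value below 0, at -0.32 (SE 0.34, adjusted p = 0.749 in edgeR). The groups overlapped, and the 2 WT libraries differed more than the group means. Their exact Poisson 95% intervals, which cover counting error only, were 39.7 to 69.3 and 69.7 to 107 counts. Without WT replicate 2 the log2 fold change was 0.11. With the length correction it was -0.15, and with replicate block and length correction -0.12. The Bcl2 length that RSEM averages over the isoforms it detects was 5585 and 4888 bases in WT and 5890 and 7209 bases in the deficient-labelled pair, so at these low counts the mix of the 2 listed transcripts also varied from library to library. Bcl2 shares 558 exonic bases with an antisense gene, D630008O14Rik, and whether reads were counted by strand is not given in the sources used here.

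The executioner Bak1 (chromosome 17, 27019812 to 27028627) was at 25.2 and 26.3 CPM in WT and at 22.4 and 33.1 CPM in the deficient-labelled pair. The deficient-labelled libraries lay on both sides of the WT pair, and the log2 fold change of 0.11 had a 95% interval of -0.45 to 0.67 (adjusted p = 0.899, edgeR). With library totals in place of TMM it was -0.04, and without deficient-labelled replicate 2 it was -0.20. Bak1 shares 614 exonic bases with Ggnbp1 on the opposite strand. Its companion Bax, which is not among the 10, was at 232 and 198 CPM in WT and at 257 and 273 CPM in the deficient-labelled pair, a log2 fold change of 0.30 (SE 0.19, adjusted p = 0.561 in edgeR).

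The 3 BH3-only genes among the 10 were higher in both deficient-labelled libraries, by less than the Bcl2a1 sum and with no call. Bid, whose protein is cut by caspase-8 to carry the signal of death receptors to mitochondria, was at 70.3 and 69.2 CPM in WT and at 84.1 and 98.4 CPM in the deficient-labelled pair. The WT libraries were close to each other, and the log2 fold change was 0.39 (SE 0.19, 95% interval -0.03 to 0.80, adjusted p = 0.431, edgeR). Bid lies on chromosome 6 from 120893119 to 120917062 and shares 628 exonic bases with Bcl2l13 on the opposite strand, which had a log2 fold change of -0.26.

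Bcl2l11, which codes for BIM, a BH3-only protein that binds all guardians, was at 35.7 and 40.2 CPM in WT and at 63.3 and 40.9 CPM in the deficient-labelled pair. Only replicate 1 of the latter stood clear of the WT libraries, and replicate 2 was 1.02 times the higher WT library. The log2 fold change was 0.45 (SE 0.24, adjusted p = 0.478 in edgeR). Without that replicate 2 it was 0.74 and passed (adjusted p = 0.0458, edgeR), and without replicate 1 it was 0.11. The gene lies on chromosome 2 from 128126038 to 128162547.

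Pmaip1, which codes for NOXA, the partner that binds MCL1 and A1, was at 24.03 and 18.3 CPM in WT and at 25.3 and 28.2 CPM in the deficient-labelled pair. The lower of the latter was 1.05 times the higher WT library, and the log2 fold change was 0.34 (SE 0.24, 95% interval -0.20 to 0.88, adjusted p = 0.605, edgeR). It was 0.15 without WT replicate 2 and 0.56 without WT replicate 1.

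**Figure D3:**
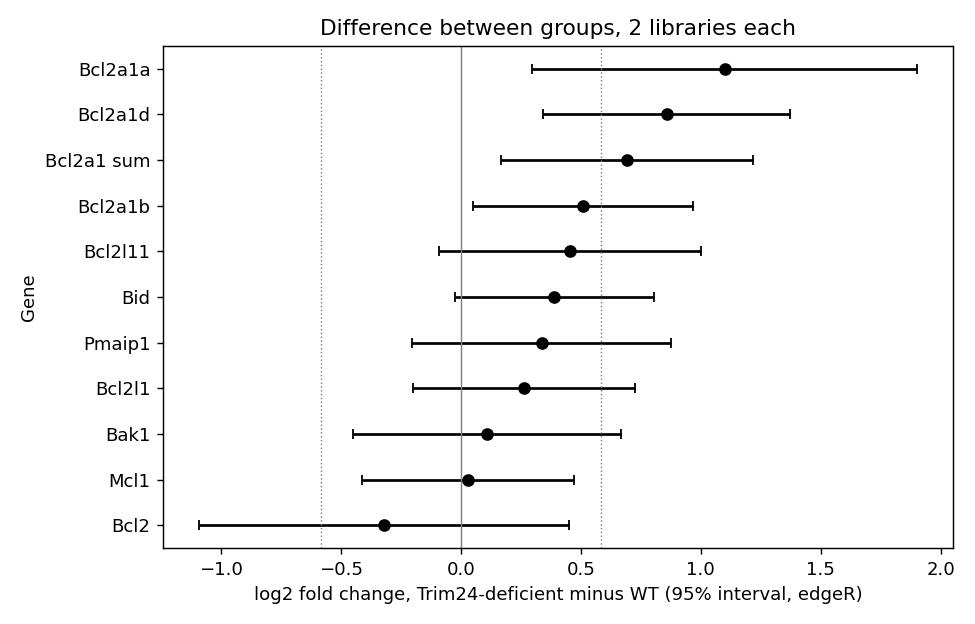
Log2 fold change (Trim24-deficient minus WT, points) with its 95% interval (bars, edgeR) for the 10 members and the Bcl2a1 sum, with dotted lines at a 1.5-fold change. The intervals of the 3 Bcl2a1 genes and of their sum (0.17 to 1.22) lie above 0, and those of the other 7 members include 0.

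Counted over the members, 7 of 10 had both deficient-labelled libraries above both WT libraries and 0 had both below, where 21.4% and 23% of all tested genes did so, 44.5% in all. With the 3 paralogs taken as a single feature, since they share reads, it was 5 of 8. Both survival and death genes were among the 7, with Bcl2l1 and the Bcl2a1 genes beside Bid, Bcl2l11 and Pmaip1. With the paralogs counted separately, log2 fold changes were above 0 for 9 members, beside 5580 of 11302 tested genes. With library totals in place of TMM they were above 0 for 7 members. That scaling moved the median of all genes to -0.15 and that of the members to 0.21.

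The rest of the family had no call either in the fits of all 4 libraries without a replicate block. Of 16 other BCL2 family genes, 9 were tested and 0 were called by edgeR or DESeq2, against 0.372% and 1.38% of all genes. At an unadjusted p under 0.05 in edgeR stood 1, against 12.2% of all genes. That gene was Bnip3, a mitochondrial protein induced by hypoxia, at 223 and 140 CPM in WT and at 322 and 348 CPM in the deficient-labelled pair (log2 fold change 0.89, SE 0.25, adjusted p = 0.200 in edgeR). Bnip3 was at 0.95 without deficient-labelled replicate 1 and at 0.83 without replicate 2. With the replicate number as a block it was at 0.92 and passed (adjusted p = 0.000774, edgeR), where 5.61% of all genes were called. Bbc3, which codes for the p53-induced BH3-only protein PUMA, was at 10.7 and 10.001 CPM in WT and at 9.80 and 5.34 CPM (log2 fold change -0.45, adjusted p = 0.664, edgeR). The median of the 9 tested genes was 0.17. The other BH3-only genes Bmf, Bik and Hrk were below the filter, with at most 17 expected counts in any library.

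Further along the pathway, 37 genes of 4 lists were tested and 0 were called by edgeR or DESeq2, against 0.372% and 1.38% of all genes. At an unadjusted p under 0.05 stood 8 in edgeR, against 12.2% of all genes, and 4 in DESeq2, against 7.95%. None of the 10 apoptosome and caspase genes was among these 8, and the median of that list was 0.29, with Casp9, the caspase that the apoptosome activates, at 36.8 and 38.1 CPM in WT and at 51.1 and 38.8 CPM in the deficient-labelled pair (log2 fold change 0.26, adjusted p = 0.651, edgeR). Among 7 IAP genes and antagonists 1 was, Birc3, a ubiquitin ligase of TNF receptor signalling, at 46.0 and 44.0 CPM against 94.6 and 70.5 CPM (log2 fold change 0.87, SE 0.21, adjusted p = 0.151 in edgeR).

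Among 13 death receptor and adaptor genes 4 were higher and 1 lower at that level, against 6.58% and 5.62% of all genes. Fas, a death receptor, was at 11.5 and 8.33 CPM in WT and at 17.9 and 21.2 CPM in the deficient-labelled pair (log2 fold change 0.97, adjusted p = 0.225, edgeR). The necroptosis kinase Ripk3 was at 91.5 and 69.2 CPM against 118 and 160 CPM (log2 fold change 0.79, adjusted p = 0.210, edgeR). Its target Mlkl and the adaptor Traf2 had log2 fold changes of 0.57 and 0.48, and Fadd, the adaptor that binds caspase-8, had -0.51. Without deficient-labelled replicate 1, Ripk3 was at 1.001 and the TRAIL receptor gene Tnfrsf10b at -0.94. Without replicate 2, Birc3 was at 1.07 and the cytokine gene Tnf at 0.72. With all libraries Tnfrsf10b was at -0.51 and Tnf at 0.43, and the groups overlapped for both (adjusted p = 0.522 and 0.525, edgeR).

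The 7 genes of MCL1 and BIM turnover formed the only one of these lists with a median below 0, at -0.21. Huwe1 (14637 bases), Usp9x (11903) and Gsk3b (8298) are long beside the median of 2810 bases for the tested genes, while Mapk3 (1772) is not. The 2 genes of the list above 0 are also longer than that median, Btrc (6312 bases) at 0.19 and Fbxw7 (3952 bases) at 0.04. Longer genes tended to be lower in the deficient-labelled pair, and the part of length in this median was not tested. Huwe1, a ligase that marks MCL1 for destruction, was at 101 and 101 CPM in WT and at 80.9 and 59.8 CPM in the deficient-labelled pair (log2 fold change -0.53, adjusted p = 0.342, edgeR). Mapk3, the kinase ERK1 that acts on BIM, was at 49.1 and 54.6 CPM against 29.8 and 38.2 CPM (log2 fold change -0.61, adjusted p = 0.292, edgeR). Huwe1 was at -0.76 without replicate 1 of the deficient-labelled pair, and Mapk3 at -0.80 without replicate 2.

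**Figure D4:**
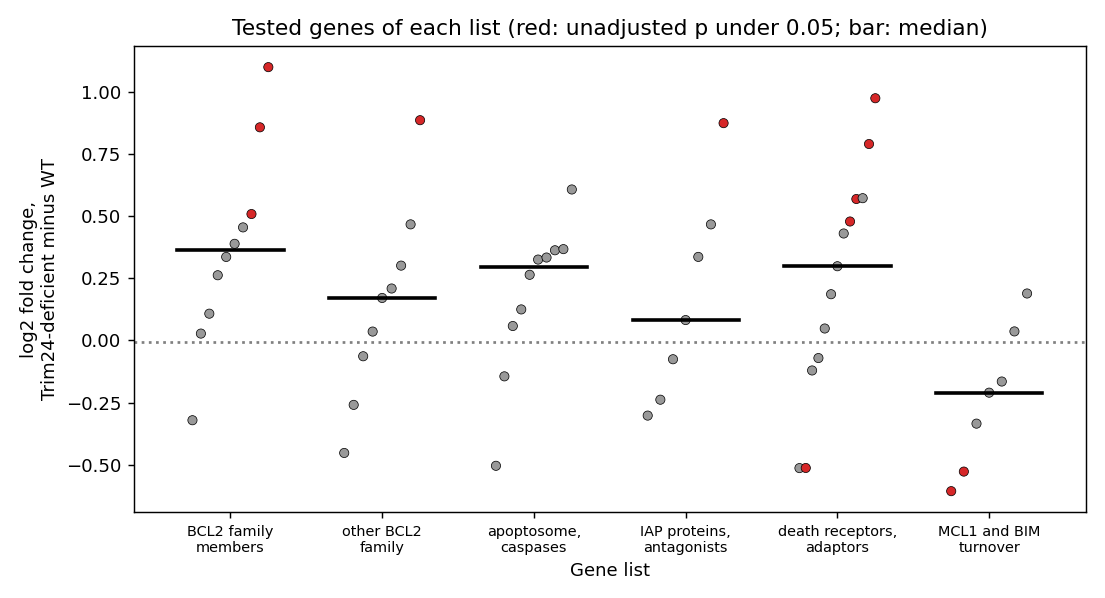
Log2 fold change (Trim24-deficient minus WT) of each tested gene in 6 lists, with red points at an unadjusted p under 0.05 (edgeR), bars at list medians and a dotted line at the median of all genes. The median is 0.36 for the 10 members, with the Bcl2a1 genes counted separately, and -0.21 for the 7 genes of MCL1 and BIM turnover. No gene shown passed after adjustment.

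Monocyte and neutrophil marker sums, like the Bcl2a1 reads, were higher in both deficient-labelled libraries. In bulk RNA a change in the number of cells of a type and a change in RNA per cell cannot be told apart. The 5 monocyte markers summed to 519 and 644 CPM in WT and to 1648 and 1041 CPM in the deficient-labelled pair. The log2 fold changes of 5 of 5 were above 0, beside 5580 of 11302 tested genes, with overlap of the groups for Vcan (0.13). The 8 neutrophil markers summed to 187 and 229 CPM in WT and to 290 and 458 CPM in the deficient-labelled pair. Of 6 tested neutrophil markers 5 had a log2 fold change above 0, and Cxcr2 had -0.30. For 4 of the 5 the groups did not overlap, as for 21.4% of all tested genes in that direction. The defining marker Ly6g was listed at 0 in both WT libraries and was at 2.004 and 0.918 CPM in the other 2. S100a8 was at 17.4 and 15.6 CPM against 35.1 and 118 CPM. The neutrophil sum was highest in deficient-labelled replicate 2, although Ly6g and Csf3r were highest in replicate 1. The monocyte sum was highest in replicate 1, which also held the most Bcl2a1 reads. Between the WT libraries, the monocyte sum was higher in replicate 2 and the Bcl2a1 sum in replicate 1. Macrophage, T cell, NK cell and dendritic cell sums were also highest in deficient-labelled replicate 1, and the melanoma sum was highest in WT replicate 1.

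T cell markers summed to 87.0 and 67.1 CPM in WT and to 165 and 61.0 CPM in the deficient-labelled pair, NK cell markers to 62.0 and 30.6 against 178 and 51.8 CPM, B cell markers to 46.3 to 55.4 CPM in all 4 libraries and dendritic cell markers to 48.0 and 44.1 against 78.4 and 36.3 CPM. Melanoma markers summed to 810 and 770 CPM against 607 and 803 CPM, and macrophage markers to 23390 and 19617 against 26096 and 24951 CPM. The part of these cells in the Bcl2a1 difference was not tested.

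**Figure D5:**
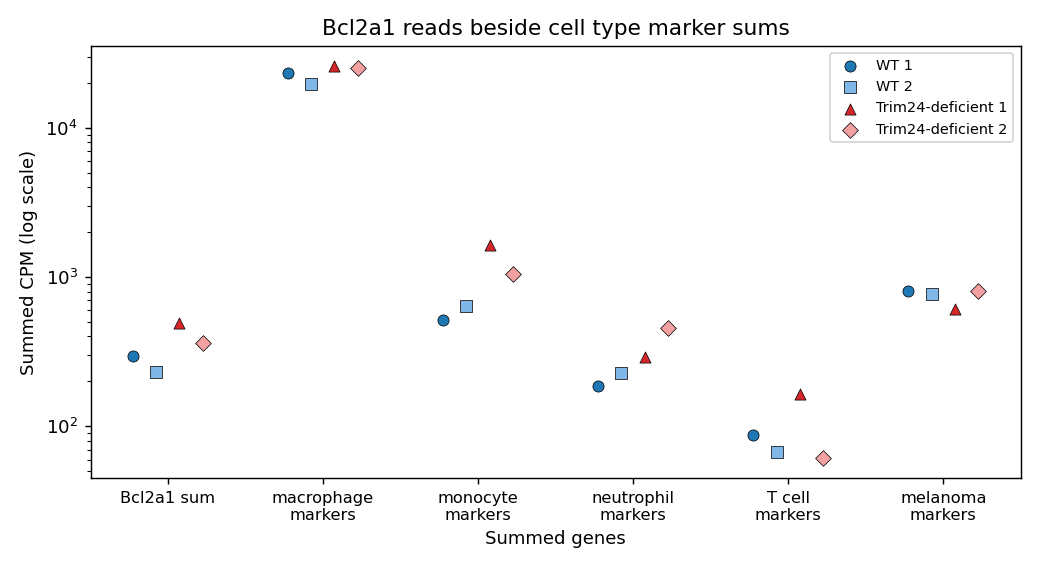
Summed CPM (log axis) of the 3 Bcl2a1 genes and of 5 cell type marker lists in each of the 4 libraries, with a point for each library. Bcl2a1, monocyte, neutrophil and macrophage sums are higher in both deficient-labelled libraries than in both WT libraries, and T cell and melanoma sums overlap.

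Over the 4 libraries, the 3 genes whose log2 CPM was most like the Bcl2a1 sum among 9110 genes were Arl5c, Pilrb1 and Blvrb, each with a Pearson r above 0.999. Blvrb was at 248.98 and 184 CPM in WT and at 431 and 299 CPM in the deficient-labelled pair. With 4 points such values are common, and 443 genes had an r above 0.95. The 3 genes most like Mcl1 were Camk1d, Pprc1 and Sertad3, and 161 genes had an r above 0.95 with it. Camk1d was at 81.0 and 96.0 CPM in WT and at 112 and 72.7 CPM in the deficient-labelled pair.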

How the data were processed

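RNA-seq libraries of sorted TAMs, 2 per group, were grouped by their titles. According to the labels and the study's methods, the authors mapped reads with Bowtie to GRCm38/mm10, quantified genes with RSEM (versions and read length not given in the sources used here) and deposited, for each library, an expected count per gene, not normalized, an FPKM value scaled to gene length and library total, and a length. About 77% of the deposited expected counts were whole numbers.

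A gene absent from a table was set to 0. Of 16739 genes, 16698 matched a RefSeq symbol. Counts were rounded, filtered by filterByExpr (11302 genes), scaled by TMM and tested with edgeR 4.0.16 in R 4.3.3 (glmQLFit, glmQLFTest, Benjamini-Hochberg adjustment over all genes). Standard errors are the log2 fold change divided by the square root of F. The Bcl2a1 sum was fitted in a table where it replaced the 3 genes. Alternatives used DESeq2 1.42.0 and limma 3.58.1, and the scripts were tested on simulated data. Nothing says whether a library is 1 mouse or a pool, so p-values cannot be read as measuring the spread between mice. The edgeR p-values rest on a variance estimated partly from all genes together, not from each gene's 4 values alone. Chi-square per degree of freedom between replicates was 9.11 in WT and 20.5 in the other group, so the libraries are distinct.

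Members, gene lists, the rule for named genes (all members, members of the lists, and the 3 genes most correlated with the Bcl2a1 sum and with Mcl1 among genes with mean log2 CPM from 3 up) and alternatives were chosen with earlier results of these data known. Results for some genes of the lists are not reported here.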

Additional observations from a re-analysis of the deposited data

How the results depend on the processing

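Over all genes, 42 were called. Other settings gave 156 (DESeq2), 23 (limma on log2(FPKM + 1)), 20 (limma on log2(FPKM + 0.1)) and 0 (limma without a filter, with 1636 at an unadjusted p under 0.05), and leaving out each library in turn gave 25 to 652. Leaving out a library gave 0 to 3 called members, 0 to 1 other family genes and 0 to 3 further apoptosis genes, and a Bcl2a1 sum of 0.45 to 0.90. Labels give both groups the numbers 1 and 2, and nothing says that a number marks a litter or day. Deviations correlated at 0.165 for both numbers, by construction with 2 per group. With the replicate number as a block, 634 genes, 2 members (Bcl2a1a and Bcl2a1d), 1 other family gene (Bnip3) and 3 further genes (Birc3, Fas and Ripk3) were called, and the Bcl2a1 sum was 0.69 (adjusted p = 0.0242, edgeR). With the block and the length correction it was 399, 2, 1 and 1, and the sum was 0.58 (adjusted p = 0.0983). Mcl1 fell below 0 with library totals (-0.12), upper-quartile scaling (-0.028) and limma on log2(FPKM + 1) with and without a filter (-0.12 each) and on log2(FPKM + 0.1) (-0.13), and Bak1 with library totals (-0.043) and limma (-0.061, -0.061 and -0.067). Without single libraries Mcl1 ranged from -0.13 to 0.18, Bak1 from -0.20 to 0.37 and Bcl2 from -0.64 to 0.11. The 3 Bcl2a1 genes, Bcl2l1, Bid, Bcl2l11 and Pmaip1 stayed above 0 under all 15 alternatives. Counts of 49.1 to 86.7 limit Bcl2.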
